A study of Mus musculus with 6 samples.

Results

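The 10 genes described here are markers of macrophages, the phagocytes of tissue, measured in cell cultures grown from mouse dorsal root ganglia, the clusters of sensory neuron cell bodies beside the spinal cord. They were chosen by name (Csf1r, Cd68, Aif1, Adgre1, Cx3cr1, Mrc1, Trem2, Tyrobp, Lyz2 and Ptprc) and all 10 were found among the 45703 genes of the deposited count table. The cultures came from wild-type C57BL/6 mice of 4 to 6 weeks, which the labels call adult. All cultures shared 1 condition, 7 days on poly-L-lysine in a medium that held 10% fetal calf serum, 10 ng/ml EGF and 10 ng/ml FGF, and each of the 6 biological replicates was RNA from 2 dishes. There was no second condition, so the data answer which macrophage transcripts the culture held and how much they differed between replicates. The libraries held 20070639 to 22968642 counts, and marker sums of glia (Sox10, Erbb3 and Cdh19, 2122 to 3111 CPM) and of neurons (Tubb3, Stmn2 and Prph, 612 to 1365 CPM) were present in all 6. CPM is the count of a gene in the usual scaling to the total of its library. No 2 libraries were alike within sampling noise, since the median chi-square of a gene between 2 libraries was 2.09 to 6.87, where counting alone gives 0.455.

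Macrophages of a ganglion lie around neuron cell bodies and along axons, take up debris and sense injury. They depend on the receptor Csf1r, whose ligands are Csf1 and Il34, and they read their surroundings through receptors such as Trem2, which signals through the adaptor Tyrobp, and Cx3cr1, which binds the neuronal chemokine Cx3cl1. Adgre1 (the F4/80 antigen) and Mrc1 (the mannose receptor CD206) are surface proteins used to tell macrophages apart, Cd68 and Lyz2 mark their lysosomes and granules, Aif1 is the cytoplasmic protein Iba1, and Ptprc is CD45, a phosphatase found on all white blood cells.

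All 10 members were counted in all 6 libraries, and all 10 differed several-fold between replicate cultures. For every member the 3 highest libraries were replicates 3, 4 and 5, so the values of these libraries did not overlap with those of replicates 1, 2 and 6. Of the 14998 genes tested below, 8.51% had the same 3 libraries highest. That set of 3 libraries was noticed after the values were seen. Summed over the 10 genes, the level was 50.0, 80.8, 368, 457, 489 and 143 CPM in replicates 1 to 6, and the highest library was 9.79 times the lowest, or 6.06 times without replicate 1. For single members this ratio ran from 5.55 to 27.0, and from 4.47 to 10.3 without replicate 1. Without Lyz2, which alone took 68.3% to 76.1% of the sum, the ratio was 10.1. In bulk RNA, fewer macrophages and less of this RNA per macrophage cannot be told apart.

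**Figure D1:**
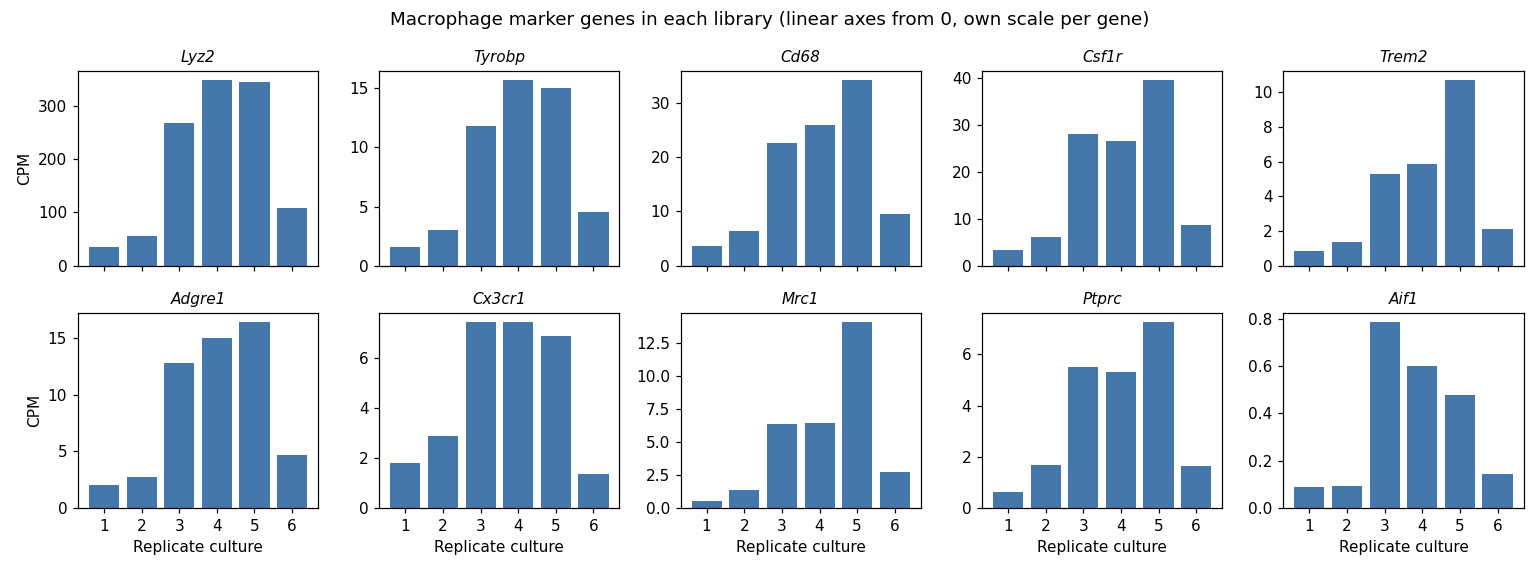
CPM (vertical, linear from 0, own scale for each gene) of the 10 members in replicate cultures 1 to 6 (horizontal), 1 bar for each library. In every panel the bars of replicates 3, 4 and 5 are the 3 tallest, and in 8 of the 10 panels replicate 5 or replicate 4 is the tallest.

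Csf1r (chromosome 18, 61105572 to 61131139, GRCm38.p6), the receptor that macrophages need to survive, was at 3.35, 6.15, 28.0, 26.6, 39.6 and 8.61 CPM in replicates 1 to 6. Replicate 5 was highest and replicate 1 lowest, a ratio of 11.8. Ptprc (chromosome 1, 138062859 to 138175756) was at 0.610, 1.69, 5.49, 5.33, 7.26 and 1.63 CPM in the same order of replicates. It followed the same division of libraries, with a ratio of 11.9 between replicates 5 and 1. Its lowest value rested on 14 counts, for which counting error alone allows 0.333 to 1.02 CPM (exact Poisson 95% interval).

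Of the sensing receptors, Trem2 (chromosome 17, 48346401 to 48352276), a receptor for lipids and cell debris, was at 0.827, 1.37, 5.31, 5.88, 10.7 and 2.10 CPM. Its adaptor Tyrobp (chromosome 7, 30413782 to 30417582), also known as DAP12, was at 1.57, 3.01, 11.8, 15.7, 15.0 and 4.54 CPM. Both were highest in replicates 3 to 5, but replicate 5 stood out for Trem2 and not for Tyrobp. Cx3cr1 (chromosome 9, 120048683 to 120068296), the fractalkine receptor, was at 1.79, 2.87, 7.43, 7.42, 6.88 and 1.34 CPM. It was the only member with its lowest value in replicate 6, and its ratio of highest to lowest library, 5.55, was the smallest of the 10, though without replicate 1 the ratios of Ptprc (4.47), Tyrobp (5.22) and Cd68 (5.40) were smaller.

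Of the surface antigens, Adgre1 (chromosome 17, 57358581 to 57483529) was at 2.05, 2.73, 12.8, 15.0, 16.4 and 4.64 CPM. Mrc1 (chromosome 2, 14229414 to 14332023), an endocytic receptor for mannose-bearing glycoproteins, was at 0.522, 1.37, 6.37, 6.43, 14.1 and 2.73 CPM. Mrc1 had the widest range of the 10, with a ratio of 27.0, and replicate 5 stood well above the next library. The ratio was 10.3 without replicate 1 and 12.3 without replicate 5, still the widest in CPM. On CPM + 0.5 after TMM scaling it was 14.1 with all libraries and 6.69 without replicate 5, below Lyz2 (9.49), Tyrobp (7.72) and Csf1r (7.19). The low end rested on 12 counts in replicate 1, which allow 0.270 to 0.913 CPM (exact Poisson 95% interval).

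Among the lysosomal and cytoplasmic markers, Cd68 (chromosome 11, 69664213 to 69666170), a lysosomal membrane glycoprotein, was at 3.57, 6.33, 22.7, 26.0, 34.2 and 9.51 CPM. Lyz2 (chromosome 10, 117277541 to 117282272), which encodes the lysozyme of macrophages, was the most counted member by far, at 35.6, 55.2, 268, 348, 345 and 108 CPM. Both again had replicates 3, 4 and 5 on top and replicate 1 lowest. Aif1 (chromosome 17, 35170986 to 35176083) was counted only 2, 2, 17, 12, 10 and 3 times in replicates 1 to 6, or 0.0871, 0.0911, 0.785, 0.598, 0.478 and 0.143 CPM. Its exact Poisson 95% intervals were 0.0105 to 0.315 CPM in replicate 1 and 0.457 to 1.26 CPM in replicate 3, so single values of Aif1 carry little precision.

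Lyz2 has a near copy, Lyz1, beside it on chromosome 10 (117287795 to 117292868), and the start of both coding sequences is shown because the counts of Lyz2 depend on telling them apart. Lyz2 was the only member with fractional counts, which it had in all 6 libraries, and the other 9 members had whole counts throughout. Fractional counts were common, since 51.8% of tested genes had one in at least 1 library. Over the 447 coding bases the genes differ at 22 positions (95.1% identical), and the longest stretch with no difference is 118 bases, from base 276 to base 393. The first 240 bases, printed here, hold 17 of the differences. Capitals mark the bases that differ, and the sequences are from the GENCODE transcripts of the same genome build.
Lyz2 coding sequence: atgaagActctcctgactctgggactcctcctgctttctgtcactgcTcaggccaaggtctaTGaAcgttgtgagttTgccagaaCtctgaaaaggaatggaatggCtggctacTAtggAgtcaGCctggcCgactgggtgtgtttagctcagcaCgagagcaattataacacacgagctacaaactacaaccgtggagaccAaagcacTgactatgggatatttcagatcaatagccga
Lyz1 coding sequence: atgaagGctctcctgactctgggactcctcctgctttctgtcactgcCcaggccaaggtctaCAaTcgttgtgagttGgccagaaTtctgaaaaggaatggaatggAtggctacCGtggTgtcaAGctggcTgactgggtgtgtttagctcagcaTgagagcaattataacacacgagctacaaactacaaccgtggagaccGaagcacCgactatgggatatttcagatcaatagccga
Lyz1 was counted at 1.51, 1.63, 10.0, 12.3, 12.6 and 3.93 CPM, which was 2.95% to 4.25% of the counts of Lyz2 in the same library. Reads from the shared stretches may have been divided between the genes, so the level of Lyz1, a lysozyme known from the Paneth cells of the gut, is uncertain, and Lyz2 stayed the larger by far in each library.

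Levels can be set side by side between genes only per length, so CPM was divided by the kilobases of combined exon length. Lyz2 was highest at 183 ± 136 CPM per kb, followed by Tyrobp at 15.0 ± 11.0, Cd68 at 13.7 ± 9.88, Csf1r at 4.83 ± 3.80, Trem2 at 3.81 ± 3.26 and Adgre1 at 2.67 ± 1.95 CPM per kb (SD, n = 6). The lower end held Cx3cr1 at 1.23 ± 0.779, Mrc1 at 0.987 ± 0.939, Ptprc at 0.624 ± 0.460 and Aif1 at 0.351 ± 0.288 CPM per kb (SD, n = 6). The large SDs are the differences between cultures, which the genes share, so neighbours were compared within each library. Lyz2 exceeded Tyrobp by 3.58 ± 0.132 on the log2 scale, in 6 of 6 libraries. Of the 9 steps between neighbours, 3 were not separated, since their order turned in 2 of 6 libraries. These were Tyrobp over Cd68 (0.086 ± 0.173, log2), Cx3cr1 over Mrc1 (0.71 ± 1.12) and Mrc1 over Ptprc (0.42 ± 0.504). The other 6 steps held in all 6 libraries, the smallest being Csf1r over Trem2 at 0.36 ± 0.177 (log2, SD, n = 6). Without division by length, 5 of the 10 genes kept their place, and Csf1r (3.88 kb) came before Tyrobp (0.575 kb).

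**Figure D2:**
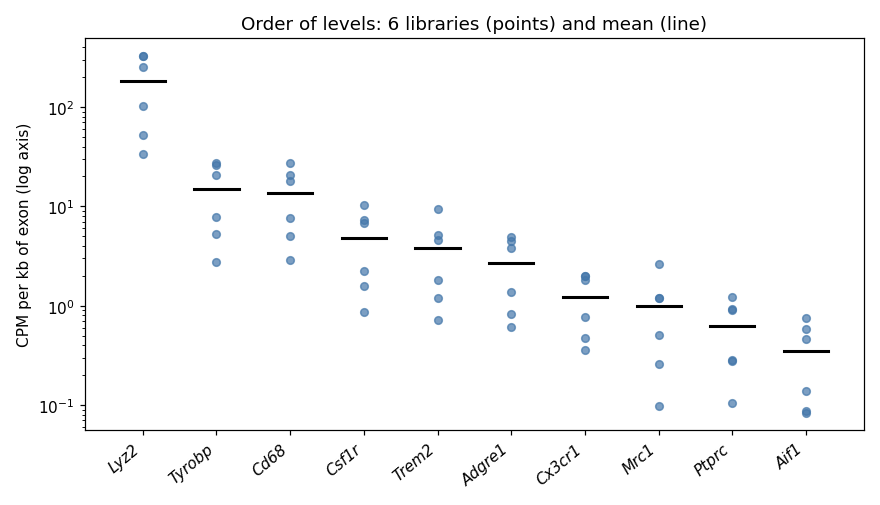
CPM per kb of combined exon length (vertical, log axis) of the 10 members, ordered by their mean (horizontal), with 1 point for each of 6 libraries and a line at the mean. Lyz2 lies above all others, and the points span the widest distance for Mrc1 (27.0-fold) and the narrowest for Cx3cr1 (5.55-fold).

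The spread between cultures was then set against all genes. A filter on low counts (edgeR's filterByExpr) kept 14998 genes and 9 of the 10 members, leaving out Aif1. It also removed genes low in a single library, such as Spi1, with 5 counts in replicate 1 and 90 in replicate 5. Genes of this kind are missing from the shares given here. The chi-square test of a gene's 6 counts against proportional library sizes, adjusted by the Benjamini-Hochberg method over all genes kept, called all 9 members. Their largest adjusted p was 1.26e-38, for Cx3cr1. That test also called 76.3% of all tested genes, so the calls alone say little about the members. The size of the differences was less common. All 9 tested members had a highest library at least 4 times the lowest, counted on CPM + 0.5 after TMM scaling of library sizes, as had 3.39% of all tested genes. The rule of at least 2-fold was met by the 9 and by 15.2% of tested genes. The median SD of log2(CPM + 0.5) was 1.21 for the 9 members against 0.164 over all tested genes. Replicates 3, 4 and 5 were the 3 highest for 9 of 9, against 8.51% of tested genes. A wide spread was not particular to the members. The median SD was 1.28 for 6 fibroblast, 1.47 for 5 mural and 0.998 for 5 endothelial genes of the lists read below. For 3 glial and 3 neuron genes it was 0.214 and 0.442. Of the fibroblast, mural and endothelial genes 4, 3 and 4 passed 4-fold, and of the glial and neuron genes 0. With low counts kept in, Aif1 was called too (adjusted p = 0.00034), as were 50.2% of the genes then tested.

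Replicates 1 and 5 were the libraries least like the others over all tested genes (mean Pearson's r with the other libraries 0.972 and 0.969, against 0.983 to 0.985), and they held most of the extremes. Of the 9 tested members 8 were lowest in replicate 1 (21.9% of tested genes were), and 6 were highest in replicate 5 (27.5%). With both libraries left out, a choice made after the values were seen, all 9 members were called again, as were 56.5% of tested genes. In that fit 5 of 9 passed 4-fold, against 0.605% of genes. Those were Lyz2, Adgre1, Tyrobp, Cx3cr1 and Csf1r. The median SD of the members was then 1.01. All p-values set the spread between these samples against counting error only. The labels name no separate animals, so the p-values do not speak for animals beyond these samples.

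**Figure D3:**
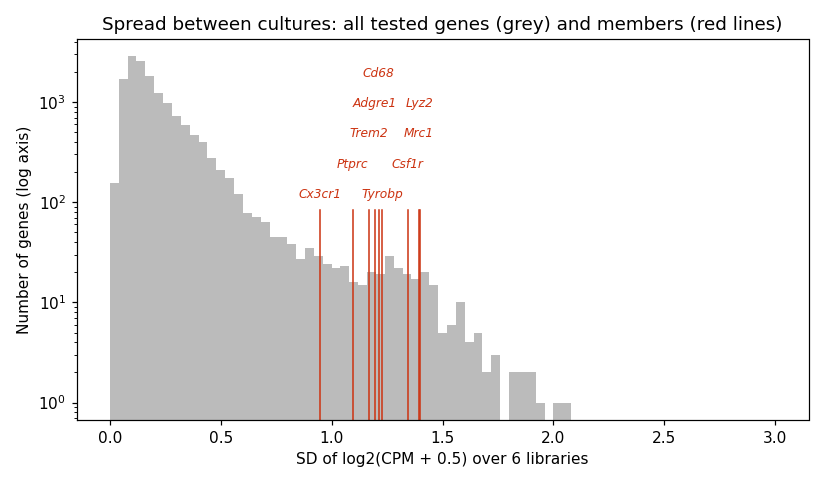
Histogram of the SD of log2(CPM + 0.5) over 6 libraries (horizontal) for the 14998 tested genes (grey, number of genes on a log axis), with red lines at the 9 tested members. The members lie between 0.946 (Cx3cr1) and 1.40 (Lyz2), in the right tail, while the median gene is at 0.164.

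The members did not move in fixed proportion. Over the 36 pairs of the 9 members, the SD of the log2 ratio between 2 members had a median of 0.319. The steadiest pair was Tyrobp and Lyz2, with an SD of 0.132. Tyrobp made up 4.22%, 5.17%, 4.21%, 4.32%, 4.18% and 4.05% of the counts of the pair in replicates 1 to 6, and the Clopper-Pearson 95% intervals of all 6 overlapped (2.97% to 5.79% in replicate 1, 3.74% to 4.66% in replicate 5). The least steady pair was Cx3cr1 and Mrc1, with an SD of 1.12. Cx3cr1 made up 77.4%, 67.7%, 53.8%, 53.6%, 32.8% and 32.9% of their counts. The interval of replicate 1, 63.8% to 87.7%, lay apart from those of replicate 5 (28.4% to 37.4%) and replicate 6 (23.1% to 44.0%). Replicates 5 and 6 thus had the same share although their summed level of the members was 489 and 143 CPM. Cx3cr1 also belonged to the next pairs in the ranking, with Lyz2 (0.805) and with Trem2 (0.783). These intervals cover counting error only, and the pairs were picked by their values, so no test is attached.

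**Figure D4:**
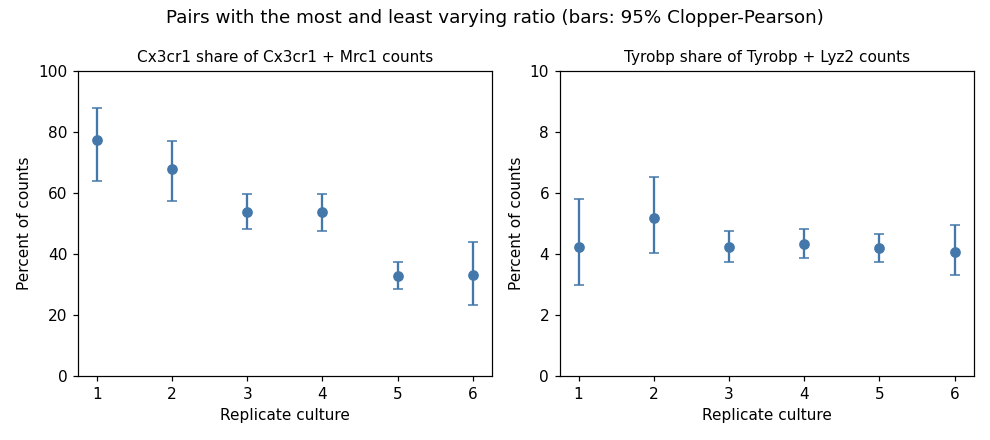
Percent of the pooled counts of a pair that fell on its first gene (vertical) in replicate cultures 1 to 6 (horizontal), with Clopper-Pearson 95% intervals, for Cx3cr1 with Mrc1 (left, axis to 100) and Tyrobp with Lyz2 (right, axis to 10). The left share runs from 77.4% to 32.8%, and the right one stays between 4.05% and 5.17%.

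Other genes of macrophages were then read, from a list chosen, like the members, with earlier results of these data known. Their values are therefore no independent check of the pattern. Of a list of 25 further genes of macrophages and their precursors, 19 passed the filter, 19 were called by the chi-square test, 15 passed 4-fold and 18 had replicates 3, 4 and 5 highest. Over all tested genes these shares were 76.3%, 3.39% and 8.51%, so the calls alone say little here too. Ctss, a lysosomal protease of phagocytes, averaged 33.4 ± 25.2 CPM and ran from 6.31 to 64.8 CPM (SD, n = 6). The complement genes C1qb (16.7 ± 12.3 CPM) and C1qc (13.5 ± 10.8 CPM), which macrophages secrete, ran over 9.17-fold and 12.1-fold. Mertk, a receptor for dying cells that glia can express too, was an exception at 116 ± 13.0 CPM, with a range of 1.33-fold. The lowest of the list were Cd86, with 2 to 13 counts, and the scavenger receptor Cd163, with 0 to 4 counts in a library. Spi1, which encodes the factor PU.1 needed to make macrophages, had 5, 21, 51, 52, 90 and 22 counts and fell under the filter. It was named after its values were seen, because letters that PU.1 binds are searched in the promoters below.

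The 10 genes nearest in profile to the members were found over all 14629 other tested genes with a mean of at least 1 CPM. Nearness was the root mean square distance over 6 libraries between a gene's centred log2(CPM + 0.5) and the mean of the 9 members, and it rests on 6 points that share library and depth. The nearest was Tlr7, a sensor of single-stranded RNA, at a distance of 0.0746, and among the others were Fcer1g (0.0843), C5ar1 (0.0970), Nckap1l (0.131), Lcp1 (0.144), Cyth4 (0.157), C1qb (0.157), Vit (0.168) and Cd180 (0.178). The median distance over the genes compared was 1.10, and the members themselves lay between 0.0725 (Cd68) and 0.525 (Cx3cr1). Fcer1g and C1qb were on the list of further macrophage genes. Lcp1, a leukocyte actin-bundling protein, averaged 29.9 ± 20.2 CPM, and Tlr7 averaged 3.38 ± 2.67 CPM (SD, n = 6).

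Promoters are shown for 3 members: Cd68, the member nearest to the mean profile, and Mrc1 and Cx3cr1, the pair with the least steady ratio. Of the 10 members 7 had entries in the RefSeq promoter table of GRCm38.p6, with 8 windows in all, and Csf1r, Adgre1 and Tyrobp had no entry. Each window is the 250 bases before a transcription start, written in the direction of the gene. The letters GAGGAA, the core that PU.1 is known to bind, were searched on both strands (TTCCTC on the other), and matches are in capitals.
Cd68, chr11:69666171-69666420, minus strand: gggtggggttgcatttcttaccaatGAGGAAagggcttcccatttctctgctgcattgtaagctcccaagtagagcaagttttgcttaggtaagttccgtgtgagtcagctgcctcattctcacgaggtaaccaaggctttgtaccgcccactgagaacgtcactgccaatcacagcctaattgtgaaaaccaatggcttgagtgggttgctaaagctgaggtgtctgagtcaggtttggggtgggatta
Mrc1, chr2:14229164-14229413, plus strand: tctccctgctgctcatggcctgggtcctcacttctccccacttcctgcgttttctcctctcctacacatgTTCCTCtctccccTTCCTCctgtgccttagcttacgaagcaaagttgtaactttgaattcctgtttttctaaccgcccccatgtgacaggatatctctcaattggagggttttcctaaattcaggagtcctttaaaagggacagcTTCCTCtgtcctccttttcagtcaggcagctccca
Cx3cr1, chr9:120068297-120068546, minus strand: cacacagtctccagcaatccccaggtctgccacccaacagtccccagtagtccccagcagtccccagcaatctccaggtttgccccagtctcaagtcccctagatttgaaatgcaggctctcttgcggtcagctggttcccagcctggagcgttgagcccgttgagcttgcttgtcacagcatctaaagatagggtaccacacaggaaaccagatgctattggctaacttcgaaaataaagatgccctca
GAGGAA was found in 5 of the 8 member windows, those of Aif1, Cd68, Mrc1, Ptprc and Trem2, and in 23.3% of the 32851 windows in the table. The longer GAGGAAGT (ACTTCCTC on the other strand), which contains it, was found in 0 of the 8 and in 2.44% of all windows. A match describes letters and not a bound site, and a part of PU.1 in the members' differences was not tested.

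Transcripts of 6 ligand genes were then read, and those of Csf1 and Il34 varied less than their receptor Csf1r. Csf1, the main ligand of Csf1r, averaged 128 ± 23.0 CPM and Il34, the other ligand, 84.9 ± 15.0 CPM (SD, n = 6). Their ranges were 1.66-fold and 1.68-fold, where Csf1r ranged over 10.2-fold on the same CPM + 0.5 scale. Csf1 was highest in replicate 5 and lowest in replicate 1, and Il34 was highest in replicate 6 and lowest in replicate 5. Cx3cl1, the ligand of Cx3cr1, averaged 17.8 ± 18.4 CPM and was lowest in replicate 1 (2.22 CPM) and highest in replicate 5 (52.2 CPM). Here the ligand varied more than its receptor, with a range of 19.1-fold where Cx3cr1 ranged over 4.26-fold on the CPM + 0.5 scale. Cx3cl1 and Cx3cr1 both had replicates 3, 4 and 5 highest. Ccl2, which draws monocytes, averaged 22.9 ± 10.6 CPM, and Apoe, a lipid carrier that Trem2 binds, 851 ± 210 CPM. Csf2, the growth factor GM-CSF, had at most 3 counts in any library. All 5 ligand genes that passed the filter were called by the chi-square test, 2 passed 2-fold, 1 (Cx3cl1) passed 4-fold and 2 (Cx3cl1 and Ccl2) had replicates 3, 4 and 5 highest, where 76.3%, 15.2%, 3.39% and 8.51% of all tested genes did.

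Signalling genes beside Tyrobp were low. Syk, the kinase that its phosphorylated tail recruits, averaged 3.81 ± 3.50 CPM, Plcg2, a phospholipase, 3.28 ± 1.95 CPM and Inpp5d, the phosphatase SHIP1, 4.73 ± 3.37 CPM (SD, n = 6). These 3 genes passed the filter, were called, and had replicates 3, 4 and 5 highest, and Syk and Inpp5d passed 4-fold (76.3%, 8.51% and 3.39% of all tested genes in that order). Vav1 (2.49 ± 2.05 CPM) fell under the filter, and Hcst, the partner adaptor DAP10, had at most 6 counts.

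Genes that separate kinds of myeloid cells were then read. Of 4 genes of tissue-resident macrophages, Folr2 averaged 2.80 ± 2.05 CPM and Lyve1 0.658 ± 0.288 CPM, and Timd4 and Cd209f had 0 counts in all 6 libraries. Among the monocyte genes, Plac8 averaged 1.86 ± 2.05 CPM, Ly6c2 had at most 8 counts and Ccr2 at most 4.5. Of 5 microglia genes, Siglech had 0 counts, Gpr34 at most 9 and Sall1 at most 19. P2ry12 did not follow the members. It was at 19.7 ± 4.71 CPM and highest in replicates 2 and 1, and Tmem119 (11.0 ± 10.2 CPM) was highest in replicates 5, 4 and 2, and whether these transcripts came from macrophages was not tested.

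Markers of other blood cell types were mostly at or near 0 counts, with exceptions among platelet and dendritic cell genes. Of 7 neutrophil markers, 0 passed the filter, and S100a9 and Elane had 0 counts everywhere. None of the 6 mast cell or 7 lymphocyte markers passed it either. The summed level was at most 0.996 CPM for neutrophils, 0.621 CPM for mast cells and 0.673 CPM for lymphocytes. Of 7 red cell and platelet genes, the haemoglobin genes Hbb-bs and Hbb-bt had 0 counts, and Itga2b (3.23 ± 0.414 CPM) was the only one that passed the filter. Of 6 dendritic cell markers, Clec9a and Cd209a had 0 counts and Xcr1 at most 0.33, Zbtb46 (8.21 ± 1.29 CPM) passed, Itgax (2.77 ± 1.95 CPM) and Flt3 (0.512 ± 0.323 CPM) did not.

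Markers of other cells of the culture moved with the members in part. The summed fibroblast list (Pdgfra, Col1a1, Col1a2, Col3a1, Dcn and Lum) was at 3338, 6062, 4429, 7446, 13967 and 4799 CPM in replicates 1 to 6. The 8 endothelial markers summed to 13.5, 22.5, 27.3, 42.9, 133 and 28.7 CPM, and the 6 mural markers, of the contractile cells of vessel walls, to 271, 570.3, 848, 900.1, 1512 and 967 CPM. All 3 lists were, like the members, lowest in replicate 1 and highest in replicate 5. The sums differed from the members elsewhere: replicate 2 was above replicate 3 in the fibroblast sum, which the collagen genes carry, and replicate 6 was second in the mural sum. The endothelial order differed only in that replicate 6 (28.7 CPM) stood just above replicate 3 (27.3 CPM). Its highest library was 9.87 times the lowest, against 9.79 for the members. Single genes of these lists did share the division of libraries. Of the 22 genes tested in the fibroblast, endothelial, mural, glial and neuron lists, 5 had replicates 3, 4 and 5 highest, against 8.51% of all tested genes: the fibroblast genes Pdgfra, Dcn and Lum, the endothelial gene Emcn and the mural gene Pdgfrb. Lum was at 7.75, 16.4, 36.5, 78.9, 63.5 and 16.3 CPM in replicates 1 to 6. The glial and neuron sums were both lowest in replicate 5. The part of these cells in the members' differences was not tested.

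**Figure D5:**
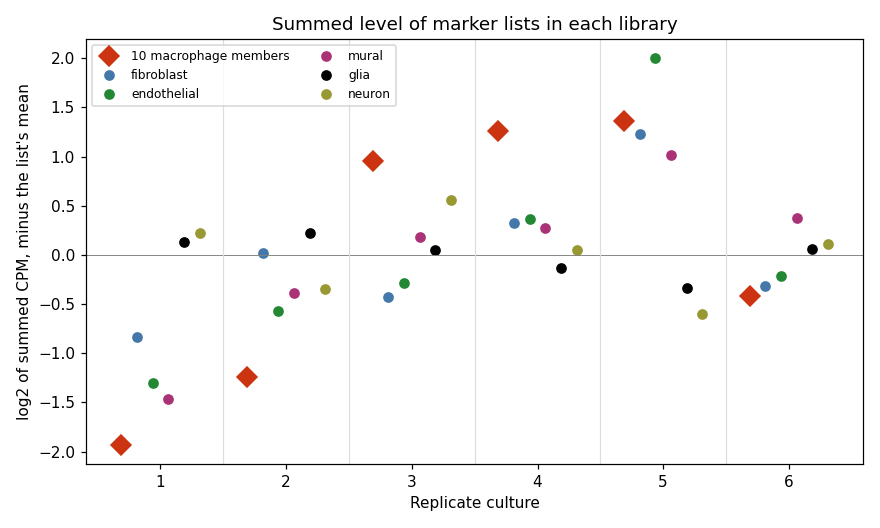
Log2 of the summed CPM of a marker list minus the list's mean over libraries (vertical) in replicate cultures 1 to 6 (horizontal), for the 10 macrophage members (red diamonds) and 5 lists of other cells (circles). The members are above 0.9 in replicates 3, 4 and 5 and under 0 in replicates 1, 2 and 6, a division that the sums of the other lists shown do not have, although 5 of their single genes have replicates 3, 4 and 5 highest.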

How the data were processed

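RNA sequencing of 6 replicate cultures gave 1 table of estimated counts per gene, which the authors deposited unscaled, per the file headers. Per the submitters' processing notes, bcl2fastq 2.20.0.422, cutadapt 2.5, STAR 2.7.2b and featureCounts 1.6.4 were used with GRCm38.p6; settings for strand and for reads with several matches are not given in the sources used here. Fractional counts show that some reads were shared out. The table also holds each gene's combined exon length, another value the authors deposited. Counts were rounded for the count tools (R 4.3.3 with DESeq2 1.42.0 and edgeR 4.0.16) and left as deposited for CPM and CPM per kb. Genes were kept by filterByExpr and libraries scaled by TMM; spread was tested by chi-square with Benjamini-Hochberg adjustment at 0.05, a script checked on simulated counts. Depth was 20070639 to 22968642 counts; intervals cover counting error only. Alternatives were library totals, DESeq2 size factors, thinning, no filter, a pseudocount of 5 in place of 0.5 and leaving libraries out. Named genes were the members, the highest 4 and lowest 2 of each list (ligands and Tyrobp signalling in full) and the 10 nearest profiles; some of these are not reported here. Members and lists were chosen with earlier results of these data known.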

Additional observations from a re-analysis of the deposited data

Results flagged for a closer look

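In 28 measures (the CPM of each member and the summed CPM of each list), the distance of the highest or lowest library from the one next to it was taken as a share of the whole range over the 6 libraries. This share was above Dixon's 95% critical value for 2 measures, and chance alone passes it in about 1 in 20. No member was among them. The summed CPM of the endothelial markers was 133 in replicate 5 and 42.9 in the next library, a ratio of 0.754. The summed CPM of the lymphocyte markers was 0.673 in replicate 4 and 0.250 in the next library, a ratio of 0.774, at levels of a few counts per gene. Among the members, Mrc1 came nearest, at 0.565 for replicate 5.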

How the results depend on the processing

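The 9 tested members were called by the chi-square test in each fit in which they were tested. These fits called 50.2% to 76.9% of all tested genes, so the calls alone say little. One thinning to 20070447 counts kept 9 members, all called. Whether Mrc1 and Ptprc pass the filter then depends on the draw: over 10 random draws, a repeat added after the data were seen, 9 members passed in 6 and 8 in 4, with Mrc1 missing from 3 draws and Ptprc from 1. With no filter 10 were tested and called, as were 50.2% of genes, and 9 of them passed 4-fold (2.91% of genes). The exception was Aif1, which ranged over 2.14-fold on CPM + 0.5. With a pseudocount of 5, 3 members passed 4-fold (Lyz2, Csf1r and Cd68; 1.45% of genes did), and the median SD fell to 0.711, since the pseudocount is large beside CPM of a few units. Without replicates 1 and 5 the count was 5 (0.605% of genes passed) and the median SD 1.01. Leaving out single replicates gave 8 to 9 members past 4-fold (2.04% to 3.37% of genes) and a median SD of 1.02 (without replicate 1) to 1.34. Those fits called 10118 to 11253 genes (66.9% to 74.8%). Without division by length, 5 members kept their place in the order, and all 10 did under the other settings. Replicates 3, 4 and 5 were highest for all tested members under each scaling, while the number of tested genes with that order rose from 1276 to 1799 with library totals. No paired analysis was possible because the 6 libraries belong to 1 group. Depth limits Aif1, with 2 to 17 counts, most.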

Other observations

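Genes of activated macrophage states were mostly low. Of 8, Spp1 (osteopontin) averaged 1045 ± 910.2 CPM with 136 CPM in replicate 1 and 2596 CPM in replicate 5, and Gpnmb averaged 205 ± 71.0 CPM (SD, n = 6). Both are known from cells other than macrophages as well, and both had replicates 3, 4 and 5 highest, as had 8.51% of tested genes. For Gpnmb the gap was small, with 194 CPM in replicate 3 and 183 CPM in replicate 1. Arg1, an enzyme of repair-type macrophages, had 1, 8, 11, 44, 264 and 14 counts, so replicate 5 held most of them. Tnf had at most 15 counts in a library, Chil3 at most 1 and Retnla 0.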
